A study of Homo sapiens with 12 samples.

Results

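The apolipoprotein L (APOL) genes were followed in U251 cells, an established human glioblastoma line, before and after interferon gamma (IFNγ). The family was taken as the table's entries for APOL1, APOL2, APOL3, APOL4, APOL5 and APOL6, which are 6 of its 27685 genes. Of the 6, 5 passed the filter on low counts and were tested together with all other expressed genes, 15769 in total, and APOL5 did not pass. The tested members passed in part because they were high in the treated groups.

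The 12 libraries fell into 4 groups of 3. These were shINCA1 cells with IFNγ, shINCA1 cells left untreated, shCTRL cells with IFNγ and shCTRL cells left untreated. shINCA1 cells stably carried a short hairpin RNA against the long noncoding RNA that the study calls INCA1, shCTRL cells stably carried a control hairpin, and treatment lasted 24 h. All libraries came from U251 cells at passages 14 to 18, the labels give no IFNγ dose, and each hairpin is 1 line as far as they tell, so a difference between hairpins is also a difference between lines.

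APOL proteins carry amphipathic helices that insert into membranes, and interferons are known inducers of the family. APOL1 is secreted into blood plasma, where it rides on lipoprotein particles and lyses trypanosomes by opening ion channels in their membranes. The other members lack a signal for secretion and stay inside the cell. APOL3 can dissolve the membranes of bacteria that reach the cytosol, working beside guanylate-binding proteins, and APOL6 has been described as a promoter of cell death when overproduced. The 6 genes lie on chromosome 22 in the order APOL6, APOL5, APOL3, APOL4, APOL2, APOL1, with RBFOX2 between APOL5 and APOL3, and none of them overlapped another annotated gene in GENCODE 44. Members are similar in sequence, so reads could be divided unevenly among them.

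The libraries held 46525032 to 66242859 estimated counts, of which 1607 to 64595 belonged to the family. Glioma and mesenchymal markers were detected in all groups (7 of 7 genes, summed to 2989 to 3681 counts-per-million, CPM), chiefly as vimentin, while GFAP averaged at most 1.59 CPM. All 7 were called between the lines, 2 higher and 5 lower in shINCA1 cells, with IFNγ as without it. Over all tested genes 58.9% were called between the lines with IFNγ and 56.9% without it. NES, which encodes the filament protein nestin, averaged 28.9 CPM in IFNγ shINCA1 cells, against 116 CPM in IFNγ shCTRL cells, and 33.5 CPM in untreated shINCA1 cells, against 137 CPM in untreated shCTRL cells. Leukocyte markers summed to 9.83 to 14.6 CPM, chiefly as CD68, with CD3E and AIF1 at 0 in every group. CD68 averaged 10.3 CPM in IFNγ shINCA1 cells, against 13.7 CPM in IFNγ shCTRL cells (log2 difference -0.41 ± 0.07, adjusted p = 1.99e-04). Untreated, it averaged 9.46 against 12.6 CPM (-0.42 ± 0.07, adjusted p = 1.74e-04). The part of these markers in the APOL differences was not tested. Endothelial markers, chiefly KDR, summed to 14.2 to 16.9 CPM in IFNγ shINCA1, 8.01 to 9.74 CPM in untreated shINCA1, 8.76 to 9.72 CPM in IFNγ shCTRL and 6.22 to 6.96 CPM in untreated shCTRL cells. KDR, a growth factor receptor gene, rose with IFNγ by 0.94 ± 0.08 on the log2 scale in shINCA1 cells (adjusted p = 6.87e-06) and by 0.48 ± 0.08 in shCTRL cells (adjusted p = 0.00136), and its part in the APOL responses was not tested. Under the symbol INCA1 the table lists a different, protein-coding gene, which lies on chromosome 17 and had 5 to 19 counts in a library. The hairpin's noncoding target could not be followed here. Nothing in the labels says that the 3 libraries of a group came from separate cultures, and p-values then measure only the spread between these libraries. In bulk RNA, fewer responding cells and less RNA per cell cannot be told apart.

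**Figure D1:**
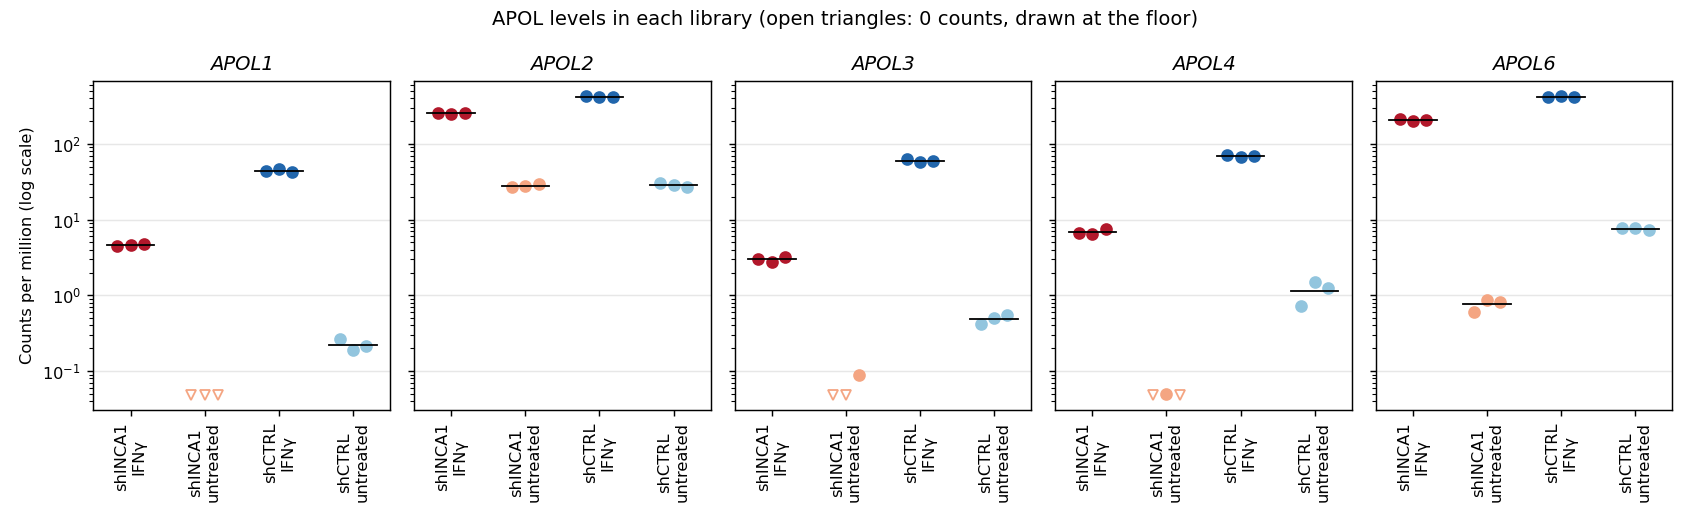
Level of each tested APOL gene in the 12 libraries, in CPM on a log axis, with 1 point per library and a line at the mean where no library was at 0. Open triangles are libraries with 0 counts, drawn at the group's floor of 3 counts per library, which is 0.0487 CPM in untreated shINCA1 cells. The IFNγ libraries lie above the untreated libraries of the same line for all 5 genes.

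IFNγ raised every tested APOL gene in both lines. In shINCA1 cells 5 of 5 tested members rose, where 9.08% of all tested genes were called, 6.13% higher and 2.95% lower. In shCTRL cells 5 of 5 rose, where 17.2% were called, 9.72% higher and 7.51% lower. Treated and untreated libraries did not overlap for any of the 5 in either line, which held for 24.9% of all tested genes in shINCA1 and 33.4% in shCTRL cells. Medians over all tested genes were 0.00 in shINCA1 and -0.01 in shCTRL cells on the log2 scale.

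APOL1, the trypanosome-lytic member, was at 4.51, 4.65 and 4.70 CPM in IFNγ shINCA1 libraries, against 0 counts in each untreated shINCA1 library. In shCTRL cells it was at 43.7, 46.3 and 43.1 CPM with IFNγ, against 0.265, 0.191 and 0.216 CPM untreated. It was therefore detected in shINCA1 cells after treatment alone, and in shCTRL cells under both conditions. In shINCA1 cells the treated level was 94.9 times the floor of 0.0487 CPM (adjusted p of the response = 2.39e-10). That value is no strict minimum, since it leaves out the counting error of the treated level. The response in shCTRL cells was 7.60 ± 0.10 on the log2 scale (SE, adjusted p = 8.94e-12).

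APOL3, the member with activity against cytosolic bacteria, reached 3.02, 2.79 and 3.22 CPM in IFNγ shINCA1 libraries, against 0, 0 and 0.0890 CPM in untreated ones. The corresponding shCTRL levels were 62.7, 58.2 and 59.2 CPM with IFNγ, against 0.414, 0.509 and 0.558 CPM untreated. Every treated library lay above the untreated ones of its line, and the treated shINCA1 libraries lay far below the treated shCTRL libraries. The ratio of treated to untreated was 93.0 in shINCA1 cells, with a 95% exact interval of 25.3 to 773 when 3 units are taken as 1 fragment (adjusted p = 1.38e-07), and the log2 response in shCTRL cells was 6.93 ± 0.21 (adjusted p = 3.43e-10). The shINCA1 ratio rests on 6 counts in untreated library 3. Without that library the untreated group was at 0, and the treated level was 59.1 times the floor. That value is no minimum, since the library with counts was left out and the interval above reaches lower.

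APOL6, the member linked to cell death, had 211, 203 and 205 CPM in IFNγ shINCA1 libraries, against 0.610, 0.865 and 0.816 CPM in untreated ones. In shCTRL cells it had 413, 427 and 419 CPM with IFNγ, against 7.69, 7.70 and 7.34 CPM untreated. The untreated lines thus differed more, on a ratio scale, than the treated lines did. The log2 response was 8.07 ± 0.08 in shINCA1 cells (adjusted p = 7.36e-15), the 22nd highest of the 15769 fitted values, and 5.79 ± 0.06 in shCTRL cells (adjusted p = 3.32e-14), the 65th.

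APOL2, an intracellular member found at the endoplasmic reticulum, stood at 256, 251 and 253 CPM in IFNγ shINCA1 libraries, against 27.4, 27.5 and 29.5 CPM in untreated ones. In shCTRL cells it stood at 430, 413 and 420 CPM with IFNγ, against 30.8, 28.6 and 26.8 CPM untreated. It was the member with an appreciable level before treatment in both lines, and its untreated libraries overlapped between the lines. The log2 response was 3.17 ± 0.05 in shINCA1 cells (adjusted p = 7.75e-13) and 3.87 ± 0.05 in shCTRL cells (adjusted p = 1.69e-13).

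APOL4 had 6.62, 6.42 and 7.43 CPM in IFNγ shINCA1 libraries, against 0, 0.0499 and 0 CPM in untreated ones. Its shCTRL levels were 72.4, 68.2 and 68.6 CPM with IFNγ, against 0.729, 1.49 and 1.24 CPM untreated. Its untreated shINCA1 level rested on 3 counts in library 2. The ratio in shINCA1 cells was 421, with a 95% exact interval of 75.1 to 16670 on the fragment scale (adjusted p = 2.12e-08). Without that library the treated level was 142 times the floor, which is no minimum, since the interval reaches lower. The log2 response in shCTRL cells was 5.94 ± 0.21 (adjusted p = 1.32e-09).

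APOL5 had 2 counts in IFNγ shCTRL library 2 and 0 in the other 11 libraries, so no response could be given for it at this depth. A count of 0 in every library of a group allowed levels up to 0.0561 CPM in IFNγ shINCA1, 0.0487 CPM in untreated shINCA1 and 0.0552 CPM in untreated shCTRL cells.

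**Figure D2:**
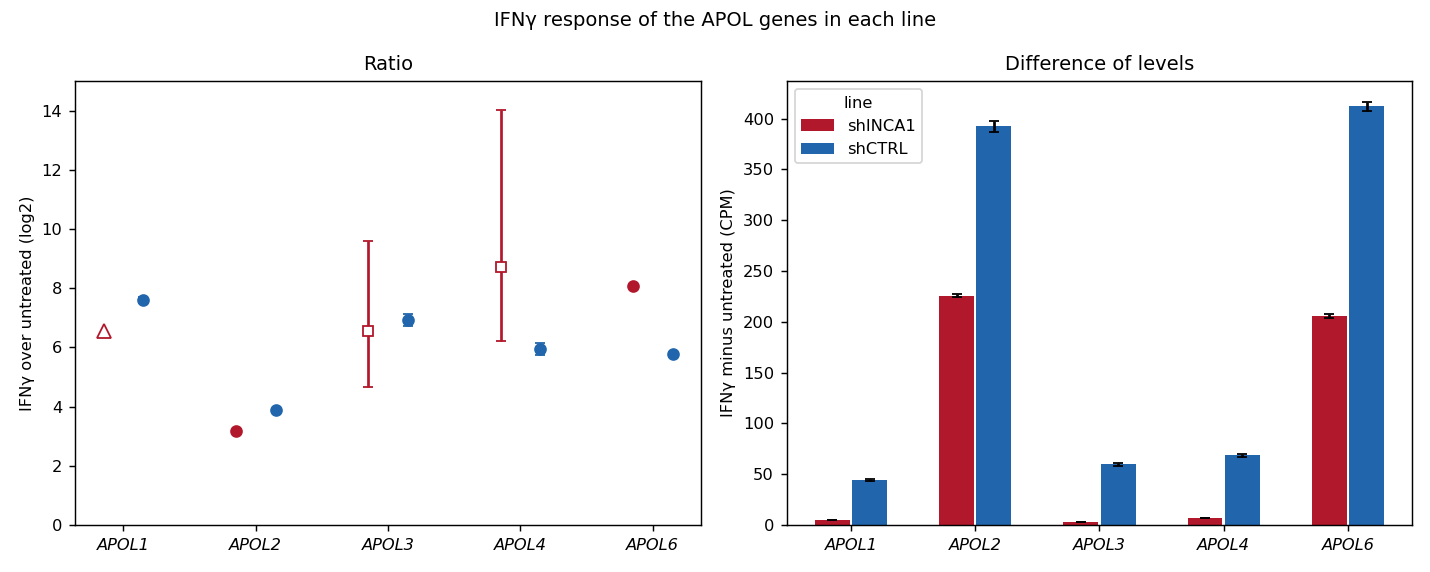
IFNγ response of each tested APOL gene in shINCA1 (red) and shCTRL (blue) cells, on the left as a log2 ratio of treated to untreated and on the right as the difference of mean CPM with its SE. Filled circles are fitted values with SE, open squares are ratios with exact 95% intervals for groups of 9 counts or fewer, and the open triangle is a lower bound. APOL6 has the higher ratio in shINCA1 cells, 8.07 against 5.79, but the smaller gain in CPM, 206 against 412.

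The responses of the lines were compared next, which asks whether the hairpin line changed the size of the induction. The difference of the log2 responses was tested directly, and it passed for 2 of 5 members, 1 in each direction, where 1.71% of all tested genes were called, 0.615% higher and 1.1% lower in shINCA1 cells. APOL6 was induced more strongly in shINCA1 than in shCTRL cells, by 2.28 ± 0.10 on the log2 scale (SE, adjusted p = 2.08e-07). APOL2 was induced less strongly, with a difference of -0.70 ± 0.07 (adjusted p = 2.21e-04). For APOL1, APOL3 and APOL4 the test did not pass (adjusted p = 0.129, 0.925 and 0.145), and since their untreated shINCA1 groups held 0 to 6 counts in all, no size is given. APOL4 passed with the DESeq2 Wald test (adjusted p = 0.0400) and without untreated shCTRL library 1 (adjusted p = 0.0366).

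On the scale of levels gained, the direction for APOL6 was the opposite of its log2 difference. IFNγ added 206 ± 2.36 CPM (SE) of APOL6 in shINCA1 cells, against 412 ± 4.20 CPM in shCTRL cells, so the gain in shINCA1 cells was 49.9% of that in shCTRL cells. APOL2 gained 225 ± 1.50 CPM in shINCA1 cells, against 392 ± 5.20 CPM in shCTRL cells, or 57.5%. The low-level members gained smaller shares of the shCTRL amount. APOL1 gained 4.62 against 44.1 CPM (10.5%), APOL4 6.81 against 68.6 CPM (9.93%) and APOL3 2.98 against 59.5 CPM (5.01%).

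With IFNγ present, shINCA1 cells held less of every tested APOL transcript than shCTRL cells did. All 5 tested members were lower, where 58.9% of all tested genes were called, 28.7% higher and 30.2% lower, and the libraries of the lines did not overlap for any of them, as for 66.5% of all tested genes. The log2 difference was -4.32 ± 0.17 (SE) for APOL3 (adjusted p = 1.41e-09), -3.35 ± 0.17 for APOL4 (adjusted p = 1.17e-08) and -3.26 ± 0.07 for APOL1 (adjusted p = 2.07e-10). It was -1.02 ± 0.05 for APOL6 (adjusted p = 1.02e-08) and -0.73 ± 0.05 for APOL2 (adjusted p = 5.67e-08). APOL3, APOL4 and APOL1 were thus 19.9-fold, 10.2-fold and 9.59-fold lower in treated shINCA1 than in treated shCTRL cells, and APOL6 and APOL2 2.03-fold and 1.66-fold lower. With so many genes called between the treated lines, a call or a lack of overlap alone says little about a single gene here.

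Without IFNγ, 4 of 5 tested members were lower in shINCA1 than in shCTRL cells, where 56.9% of all tested genes were called, 27.4% higher and 29.5% lower. APOL6 differed by -3.30 ± 0.08 on the log2 scale (adjusted p = 2.83e-11). APOL1 was at 0 counts in untreated shINCA1 libraries, against 37 counts in the 3 untreated shCTRL libraries (adjusted p = 4.36e-07). Its shCTRL level was 4.66 times the shINCA1 floor, which is no minimum, since the error of the 37 counts is left out. For APOL3 the ratio of the shCTRL to the shINCA1 level was 15.1 (95% exact limits 3.85 and 133 on the fragment scale, adjusted p = 3.71e-05), and for APOL4 it was 69.2 (limits 11.96 and 2777, adjusted p = 1.28e-06). Without the 1 untreated shINCA1 library that held their counts, the shCTRL levels were 9.61 and 23.3 times the floor. These values are no minima, since the exact limits reach lower. APOL2 did not pass, at -0.03 ± 0.05 with a 95% interval of -0.14 to 0.07 (adjusted p = 0.594). These comparisons share their shCTRL and shINCA1 libraries with the responses above, and their values are set side by side only.

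Levels of different members were compared per kilobase of the canonical transcript, since APOL6 is 10065 bases long and the others 1438 to 3069. In IFNγ shINCA1 cells the order was APOL2 at 104 ± 0.951 CPM per kb (SD, n = 3), APOL6 at 20.5 ± 0.406, APOL4 at 2.22 ± 0.173, APOL1 at 1.65 ± 0.0349 and APOL3 at 1.47 ± 0.105. The libraries of neighbours in this order did not overlap, the closest pair being APOL1 (1.62 to 1.68) and APOL3 (1.37 to 1.58). In IFNγ shCTRL cells the order was APOL2 at 173 ± 3.62, APOL6 at 41.7 ± 0.722, APOL3 at 29.4 ± 1.15, APOL4 at 22.7 ± 0.756 and APOL1 at 15.9 ± 0.606. Neighbours in this order did not overlap either. APOL3 thus came right after APOL2 and APOL6 in treated shCTRL cells and last of the tested members in treated shINCA1 cells. This place depended on the length used. With the merged length of all annotated exons APOL3 was at 0.510 in IFNγ shINCA1 and 10.2 in IFNγ shCTRL cells, below APOL1 at 1.34 and 12.8 in both lines.

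Untreated cells had a different make-up per kilobase. In untreated shINCA1 cells APOL2 was at 11.6 ± 0.494 CPM per kb and APOL6 at 0.0758 ± 0.0135, while APOL1, APOL3 and APOL4 held at most 6 counts in all. In untreated shCTRL cells APOL2 was at 11.8 ± 0.833, APOL6 at 0.753 ± 0.0205, APOL4 at 0.375 ± 0.126, APOL3 at 0.242 ± 0.0357 and APOL1 at 0.0801 ± 0.0135. APOL4 (0.237 to 0.484) and APOL3 (0.203 to 0.273) overlapped there, so their order was not distinguishable. The whole family summed to 130 ± 1.39 CPM per kb in IFNγ shINCA1 cells, against 11.7 ± 0.520 in untreated shINCA1 cells. It summed to 283 ± 4.44 in IFNγ shCTRL cells, against 13.3 ± 0.739 in untreated shCTRL cells.

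**Figure D3:**
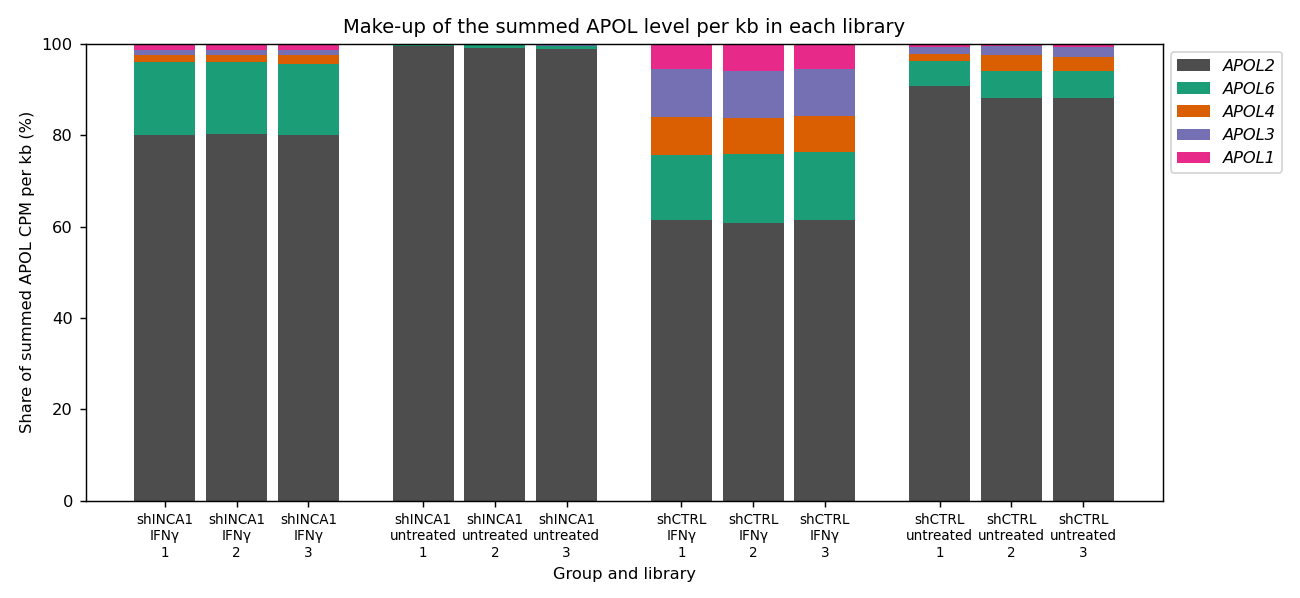
Share of each member in the summed APOL level of a library, in percent of CPM per kb of the canonical transcript, with 1 bar per library. APOL2 holds 80.1% in IFNγ shINCA1, 99.2% in untreated shINCA1, 61.2% in IFNγ shCTRL and 89.0% in untreated shCTRL libraries on average.

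After IFNγ, APOL2 made up 80.1 ± 0.174% of the summed level in shINCA1 cells (SD, n = 3), against 61.2 ± 0.416% in shCTRL cells. APOL6 held 15.8 ± 0.164% in IFNγ shINCA1 cells, against 14.7 ± 0.473% in IFNγ shCTRL cells. APOL3 held 1.13 ± 0.0750% in IFNγ shINCA1 cells, against 10.4 ± 0.243% in IFNγ shCTRL cells, and APOL4 held 1.71 ± 0.130%, against 8.03 ± 0.142%. APOL1 held 1.27 ± 0.0372%, against 5.61 ± 0.271%. With merged exon lengths the share of APOL3 was 0.520% in IFNγ shINCA1 and 4.99% in IFNγ shCTRL cells, so shares depend on the length used. The family's RNA was therefore mostly APOL2 and APOL6 in both treated lines. With canonical lengths the shares of every tested member did not overlap between the treated lines. With merged exon lengths those of APOL6 overlapped, at 20.8 to 21.2% in IFNγ shINCA1 and 19.9 to 21.0% in IFNγ shCTRL cells.

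The neighbours of the family on chromosome 22 were read from a list of 18 genes, of which 12 were tested. Over all tested genes 9.08% were called for the IFNγ response in shINCA1 and 17.2% in shCTRL cells. In shINCA1 cells 0 of 12 passed for the IFNγ response in edgeR's quasi-likelihood test, with 2 at an unadjusted p under 0.05 and 1 each by DESeq2 and limma-voom. In shCTRL cells RBFOX2, a splicing factor gene that lies inside the cluster, rose by 0.17 ± 0.03 on the log2 scale (adjusted p = 0.00465), and TOM1, an endosomal sorting gene, changed by -0.19 ± 0.05 (adjusted p = 0.0265). In that line 4 neighbours had an unadjusted p under 0.05, and DESeq2 and limma-voom called 3 each. RBFOX2 and TOM1 moved by far less than any tested APOL gene did in shCTRL cells. Between the lines with IFNγ, MYH9, the gene of a non-muscle myosin heavy chain next to APOL1, differed by -0.86 ± 0.02 (adjusted p = 1.02e-10) and RBFOX2 by 0.23 ± 0.03 (adjusted p = 1.04e-04). HMOX1, a heme-degrading enzyme gene, was higher in shINCA1 cells by 2.16 ± 0.07 (adjusted p = 2.80e-10). In all, 4 neighbours were higher and 2 lower in shINCA1 cells with IFNγ, and the same numbers untreated, with median differences of 0.13 and 0.05. Over all tested genes 58.9% were called between the lines with IFNγ and 56.9% untreated. The neighbour counts alone therefore say little about this region.

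**Figure D4:**
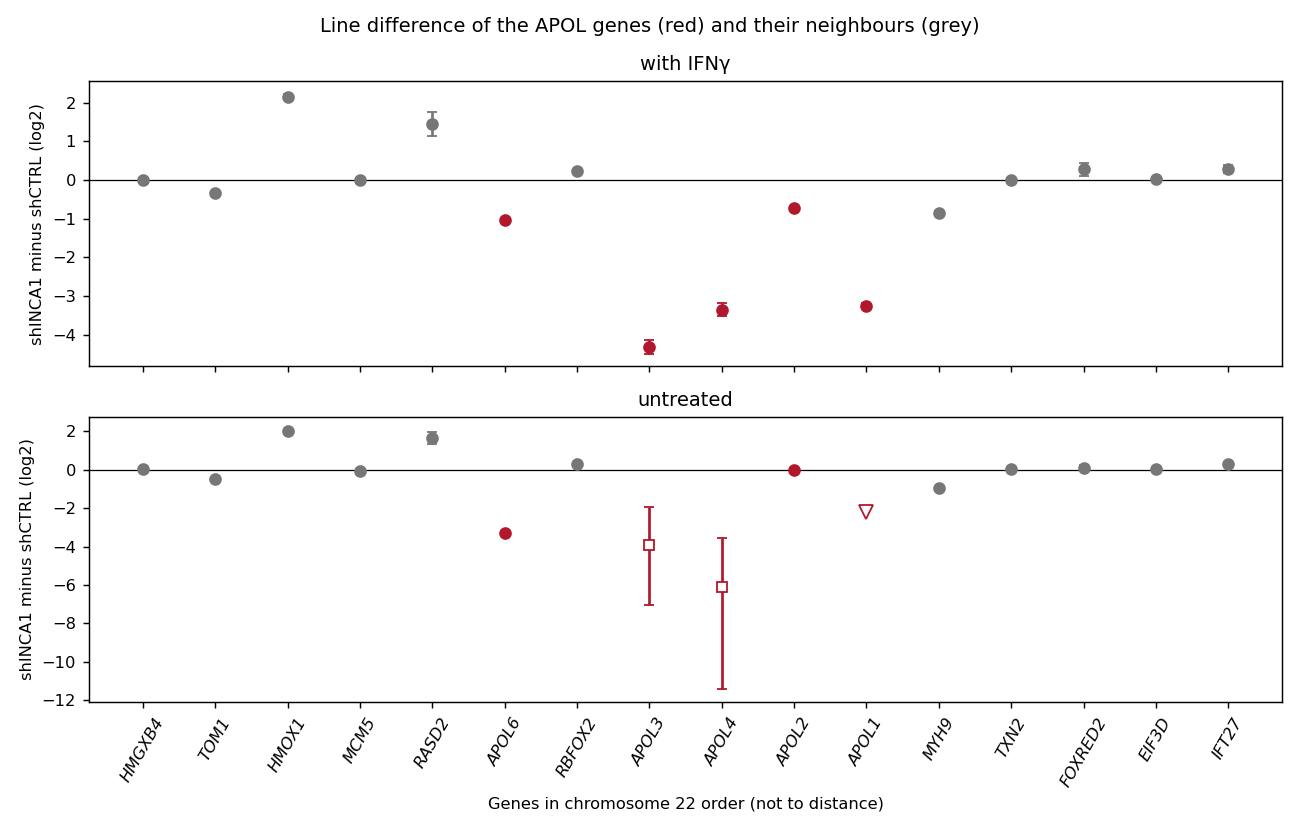
Log2 difference of shINCA1 from shCTRL cells for the tested APOL genes (red) and tested neighbours (grey) in their order on chromosome 22, with IFNγ above and untreated below. MB, with a mean of at most 0.130 CPM in each group, is left out. Circles are fitted values with SE, and squares are ratios with exact 95% intervals. The triangle sets the shINCA1 floor against the shCTRL level and leaves out the error of the shCTRL counts. With IFNγ all 5 APOL genes lie below 0 while the genes around them lie on both sides.

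Genes that carry the IFNγ signal to target promoters, together with inhibitors of it such as SOCS1, SOCS3 and PTPN2, were read beside the family. Of 15 such genes 14 were tested, and 9 rose in shINCA1 and 11 in shCTRL cells, with median log2 responses of 1.46 and 1.71. Over all tested genes 6.13% rose in shINCA1 and 9.72% in shCTRL cells. Of the 14 tested genes 13 were lower in shINCA1 cells with IFNγ and 10 without it. The shares of all tested genes that were lower were 30.2% with IFNγ and 29.5% without it. The responses differed between the lines for JAK2, a receptor-bound kinase (-1.04 ± 0.11, adjusted p = 5.27e-04), SOCS1, a feedback inhibitor of the JAK kinases (-2.05 ± 0.32, adjusted p = 0.00672), and NMI, an interferon-inducible adaptor protein (0.45 ± 0.07, adjusted p = 0.00476). Their part in the APOL differences was not tested.

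Genes of cell-autonomous defence, among them the guanylate-binding proteins that act with APOL3, had 9 of 11 tested members raised in shINCA1 and 9 of 11 raised in shCTRL cells. Over all tested genes 6.13% and 9.72% were raised. Between the lines with IFNγ, where 30.2% of all tested genes were lower and 28.7% higher, 8 were lower and 1 higher in shINCA1 cells. The higher one was GBP3 (0.16 ± 0.05, adjusted p = 0.0213), named after its value was seen. GBP1 differed by -2.77 ± 0.09 (adjusted p = 3.10e-10) and GBP4 by -2.49 ± 0.06 (adjusted p = 1.27e-08). GBP4 was named outside the rule for naming genes, since CALCOCO2 came before it by p (-0.84 ± 0.04, adjusted p = 3e-09). GBP2 differed by -1.94 ± 0.03 (adjusted p = 2.77e-12) and GBP5 by -1.34 ± 0.03 (adjusted p = 2.94e-11). GBP1 averaged 144 CPM in IFNγ shINCA1 cells, against 0.0148 CPM in untreated ones, and 984 CPM in IFNγ shCTRL cells, against 8.62 CPM in untreated ones. Its responses differed between the lines (adjusted p = 2.10e-06), with no size given because its untreated shINCA1 level is near 0. The response of GBP2 was the larger one in shINCA1 cells (difference 0.55 ± 0.05, adjusted p = 2.27e-04), as for APOL6, and that of the ubiquitin ligase gene TRIM21 was the smaller one there (-0.77 ± 0.09, adjusted p = 0.00108), as for APOL2.

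Among genes of cell death and autophagy, 7 of 15 rose in shINCA1 cells and 7 rose and 1 fell in shCTRL cells. Over all tested genes 6.13% rose in shINCA1 cells, and 9.72% rose and 7.51% fell in shCTRL cells. CASP4, which encodes a sensor of bacterial lipopolysaccharide, rose by 1.16 ± 0.05 in shINCA1 cells (adjusted p = 2.46e-08) and by 1.43 ± 0.05 in shCTRL cells (adjusted p = 2.76e-09). The response of BAK1, a pore-forming protein of the mitochondrial outer membrane, was smaller in shINCA1 cells (-0.45 ± 0.08, adjusted p = 0.0113).

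Of 9 partner proteins of APOL1 and APOL3, 6 were tested, and UBD was the 1 that rose with IFNγ. Over all tested genes 6.13% rose in shINCA1 and 9.72% in shCTRL cells. UBD, a ubiquitin-like modifier, averaged 1.27 CPM in IFNγ shINCA1 cells and was at 0 in untreated ones (adjusted p = 1.44e-04). In shCTRL cells it averaged 6.87 CPM with IFNγ, against 0.0424 CPM untreated (adjusted p = 8.14e-06). Between the lines with IFNγ it differed by -2.43 ± 0.37 (adjusted p = 2.55e-04).

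Of 16 listed genes of other apolipoproteins and related proteins, 7 were tested. In shINCA1 cells, where 9.08% of all tested genes were called for the IFNγ response, 1 of the 7 changed. This was APOLD1, a gene of endothelial cells named for its APOL-like domain, which fell to 7.30 CPM with IFNγ, against 9.13 CPM untreated (-0.32 ± 0.08, adjusted p = 0.0308). In shCTRL cells, where 17.2% of all tested genes were called, 0 of 7 passed in edgeR's quasi-likelihood test. At an unadjusted p under 0.05 it called 1, and 0 of 7 passed by DESeq2 or by limma-voom. APOLD1 there was at 7.76 CPM with IFNγ, against 9.24 CPM untreated (adjusted p = 0.0599). Between the lines with IFNγ, CLU, which encodes the secreted chaperone clusterin, was higher in shINCA1 cells by 0.25 ± 0.05 (adjusted p = 7.85e-04), and APOO, a subunit of a mitochondrial membrane complex, differed by -0.65 ± 0.09 (adjusted p = 6.67e-05), the same direction as the APOL genes. Untreated, APOO differed by -0.49 ± 0.09 (adjusted p = 6.28e-04).

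The genes whose pattern came closest to each member were found as the smallest root mean square difference of centred log2 CPM over the 12 libraries, among 12969 genes outside the family with a mean of at least 1 CPM. APOL2 lay nearest to IFIH1, a sensor of double-stranded RNA (0.18), WARS, a tryptophanyl-tRNA synthetase gene (0.23), and IFIT2, an interferon-induced antiviral gene (0.29), where the median distance of all candidates was 1.79. APOL6 lay nearest to the guanylate-binding protein genes GBP5 (0.79) and GBP2 (0.88) and the phospholipase gene RARRES3, and APOL1 to RARRES3 (0.78), GBP5 and GBP2 (1.05). APOL4 lay nearest to the antiviral genes SAMD9L (0.67) and TRIM22 (0.88) and to GBP2 (1.14), and APOL3 to TRIM22 (0.91), the somatostatin receptor gene SSTR2 (1.00) and the complement inhibitor gene SERPING1 (1.09). Within the family APOL1 and APOL3 were the closest pair (0.76), and APOL2 was 2.05 to 2.43 from each of the others. APOL1, APOL3, APOL4 and APOL6 thus lay closer to one another than any of them did to APOL2.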

How the data were processed

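Messenger RNA of the 12 samples was made into libraries with a strand-specific kit, per the labels' protocols. The authors deposited 1 table of expected counts, that is, estimated counts per gene symbol, whole numbers that are not scaled between samples. FastQC, Trimmomatic, HISAT2, StringTie and hg19 are named in the submitters' processing notes. The sources used here do not give how reads were counted, or whether by strand. Among low values 3 occurs 5790 times and 6 occurs 4120 times, against 2186 times for 2 but 3681 times for 1. Many fragments may thus be worth about 3 units, though not all, and intervals were computed after division by 3. Intervals and floors cover counting error only.

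edgeR 4.0.16 was run in R 4.3.3 on the counts (filterByExpr, TMM factors, glmQLFit and glmQLFTest, all 12 samples in 1 fit, a coefficient per group), two-sided, with Benjamini-Hochberg adjustment over 15769 genes and a threshold of 0.05. The common biological coefficient of variation was 10.6%. CPM used TMM-scaled totals. Standard errors are the log2 change over the square root of F. The fit was tested on simulated data. Groups of 9 counts or fewer got a ratio with a 95% exact interval. Groups at 0 got a ratio to a floor of 3 counts per library, which leaves out the error of the other group's counts.

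Lengths, gene order and overlaps on chromosome 22 come from GENCODE 44 (GRCh38), of which no coordinates are printed. Named genes were chiefly the members, up to 4 called genes of a list by p, and the 3 nearest patterns. The SOCS1, JAK2, NMI, TRIM21, GBP2 and BAK1 differences were chosen this way. The neighbour and apolipoprotein values that were not called were added after their values were seen. The GBP3 and GBP4 differences between the treated lines were outside the rule too. The members and lists were chosen with earlier results of these data known. Alternatives were other scaling, filters and tests (DESeq2 1.42.0, limma-voom of limma 3.58.1), a replicate block, fewer groups, each library left out, a threshold of 0.01 and neighbour medians. Promoter and protein sequences were not used here, and some genes of the lists are counted but not reported here by name.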

Additional observations from a re-analysis of the deposited data

Results flagged for a closer look

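APOL6 and APOL2 drew attention because their IFNγ responses differed between the lines when the difference itself was tested. For APOL6 the response in shINCA1 minus that in shCTRL cells was 2.28 on the log2 scale, and for APOL2 it was -0.70. The 3 shINCA1 libraries gained 206 CPM of APOL6 on average, against 412 CPM in shCTRL libraries, so the sign of the APOL6 difference holds on the log2 scale and not for the CPM gained.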

How the results depend on the processing

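Of 545 member results under 22 alternatives, 540 kept their direction and their side of the threshold, 2 passed newly and 3 changed sign, none of these 3 called. The 2 were APOL4 for the difference of responses, and the counts of called members were otherwise those reported. Subtracting the neighbour medians is not among the 22. The neighbour median with IFNγ was 0.13, so subtracting it makes each APOL difference more negative. That shift exceeds the SE for APOL1 (0.07), APOL2 (0.05) and APOL6 (0.05), but not for APOL3 or APOL4 (0.17 each). APOL2 between the untreated lines was at 0.014 without untreated shCTRL library 1 (adjusted p = 0.795), in a range of -0.081 to 0.014 over the libraries left out in turn. The APOL3 difference of responses was 0.327 with limma-voom (adjusted p = 0.936) and 3.479 without untreated shINCA1 library 3 (adjusted p = 0.312), where its remaining untreated shINCA1 counts were 0, in a range of -1.028 to 3.479 over the libraries left out. These APOL3 values depend on the prior count and give no size. The APOL6 difference ranged over 2.16 to 2.36 (adjusted p 4.61e-59 to 8.87e-05) and that of APOL2 over -0.74 to -0.65 (adjusted p 1.43e-26 to 0.00141). With total counts in place of TMM factors group mean levels moved by up to 2.77%. Upper-quartile factors called 815 genes higher and 733 lower for the IFNγ response in shINCA1 (967 and 465 reported), and 1201 and 1970 in shCTRL (1532 and 1184 reported). Replicate numbers did not pair the samples: deviations of same-numbered libraries correlated at -0.036 to 0.067, and 15 of 36 look-ups were best with the own number. With the replicate number as a block the called members numbered 5 and 5 for the responses in shINCA1 and shCTRL, 5 and 4 between the lines with and without IFNγ, and 2 for the difference. Depth limited APOL5 everywhere and APOL1, APOL3 and APOL4 in untreated shINCA1 cells. The division of counts by 3 and the merged exon length were chosen after seeing the data.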
